A study of Mus musculus with 12 samples.

Results

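The antioxidant program controlled by NRF2 was followed in mouse liver through 10 genes chosen by name: the regulator Nfe2l2 (which encodes NRF2), its sensor Keap1, and the target genes Nqo1, Gclc, Gclm, Hmox1, Srxn1, Txnrd1, G6pdx and Gsr. The expression table listed 23284 genes, and all 10 were among the 11548 genes that passed the level filter and were tested. Liver RNA had been sequenced from mice lacking both apolipoprotein A-I and apolipoprotein E (Apoa1-/- Apoe-/-, called DKO) and from mice with the same double knockout that expressed human APOA1 (DKO/hA1). Mice ate chow or a high-fat Western diet, and the single time point was 22 weeks. There were 4 libraries from DKO on chow, 3 from DKO on Western diet, 2 from DKO/hA1 on chow and 3 from DKO/hA1 on Western diet. By their labels all 4 groups carried both knockouts, and no group with a normal apolipoprotein background was analysed here. The promoter that drives the transgene, and the age and sex of the mice, are not given in the sources used here. The labels number the samples within a group but do not say whether each came from a separate animal, so the p-values measure only the spread between these samples.

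NRF2 is a transcription factor that KEAP1 holds in the cytoplasm and directs to degradation. When oxidants or electrophiles modify KEAP1, NRF2 escapes, enters the nucleus, pairs with a small MAF protein and binds antioxidant response elements near its target genes. In liver these targets make and recycle glutathione, supply NADPH, reduce thioredoxin and quinones, and break down heme.

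Promoter letters are shown for the members with a match to the antioxidant response element core, to place the element relative to each start. RefSeq windows (GRCm38.p6) running from 250 bases before to 50 bases after a transcript start were matched by symbol for 7 of the 10 genes. They were searched on both strands for TGACNNNGC and for the variant TGAGNNNGC, which can overlap the AP-1 heptamer TGAGTCA. The sequences below run 5′ to 3′ on the gene's strand, and capitals mark the matches. In Gclm, Txnrd1, G6pdx and the first match of Srxn1, the capitals show the reverse complement, because the match lay on the opposite strand.
Nfe2l2, chr2:75704875-75704913, minus strand: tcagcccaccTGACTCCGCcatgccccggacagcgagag
Srxn1, chr2:152105274-152105523, plus strand: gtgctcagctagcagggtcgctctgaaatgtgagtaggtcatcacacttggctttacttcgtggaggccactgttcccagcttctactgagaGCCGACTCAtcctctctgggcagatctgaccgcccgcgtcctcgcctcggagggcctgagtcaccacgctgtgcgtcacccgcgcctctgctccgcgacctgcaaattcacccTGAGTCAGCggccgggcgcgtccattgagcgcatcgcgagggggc
Gclm, chr3:122245403-122245451, plus strand: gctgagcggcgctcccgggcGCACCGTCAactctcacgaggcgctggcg
Txnrd1, chr10:82859094-82859142, plus strand: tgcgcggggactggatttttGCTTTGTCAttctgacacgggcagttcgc
G6pdx, chrX:74428909-74428957, minus strand: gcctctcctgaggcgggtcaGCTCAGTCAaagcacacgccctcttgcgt

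The printed matches lay 240 bases before the window's start in Nfe2l2, 158 and 45 bases in Srxn1, 134 in Gclm, 92 in Txnrd1 and 57 in G6pdx. The Srxn1 match at 45 bases, TGAGTCAGC, also contains the AP-1 heptamer. Srxn1 had a further match, TGACCTAGC on the opposite strand, 28 bases after the start and so outside the printed stretch. The window's start was that of the annotated gene for Nfe2l2, Srxn1 and G6pdx. For Gclm it lay 70 bases inside the gene. Txnrd1 had 3 windows, and the 1 with the match belonged to a start 25255 bases inside the gene. TGACNNNGC was found for 5 of the 7 genes, for Srxn1 only after the start, and in 12.4% of all 32851 windows of this length. TGAGNNNGC was found for 1 of the 7, Srxn1, and in 17.6% of all windows. The 7 genes had 9 windows, so these counts of genes and shares of windows are unlike measures. No match was present in the windows of Keap1 and Nqo1, which says only that these letters are not in those 300 bases.

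The deposited values were FPKM, fragments scaled to transcript length and to the mapped fragments of the library, so levels can be compared between genes. Column totals ran from 379689 to 578927 FPKM, and the steps between low values gave depths of 0.515 to 1.31 relative to DKO chow replicate 1, with absolute depth unknown. Mouse Apoa1 was listed at 30.4 to 77.4 FPKM in the DKO libraries and at 122 to 239.8 in the DKO/hA1 libraries. Apoe was listed at 12.9 to 89.8 FPKM over all libraries. Both knocked-out genes thus had signal in every DKO library, and the files do not show which part of each gene was deleted, so these levels do not check the knockout labels. All 11 listed hepatocyte markers were detected, at a mean log2 level of 10.49 to 10.90. Alb and Trf, which hepatocytes also express, were not on that list and were left out because a whole group listed them at 0. Liver RNA was measured in bulk, so fewer cells of a type and less RNA per cell cannot be told apart.

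Averaged over the 12 libraries, the glutathione synthesis genes were the most abundant members, with Gclc at 77.9 FPKM and Gclm at 72.5. Txnrd1 followed at 49.2 FPKM, Hmox1 at 32.7, Nfe2l2 at 25.05, Srxn1 at 20.9, Gsr at 20.5 and Keap1 at 17.3. Nqo1 at 3.53 FPKM and G6pdx at 3.15 were the lowest. Neighbours in this order had overlapping ranges over libraries, except that Keap1 was above Nqo1 in every library. The members differed in how steady they were. In FPKM, Keap1 varied 1.296-fold between its highest and lowest library, G6pdx 7.23-fold, Hmox1 5.97-fold and Gclc 4.10-fold. On log2(FPKM + 1) after library scaling, the ranges were 0.303 for Keap1, 1.96 for G6pdx, 2.48 for Hmox1 and 2.02 for Gclc. Among all genes tested these log2 ranges lay at percentiles 2.2, 93.3, 96.2 and 93.7.

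**Figure D1:**
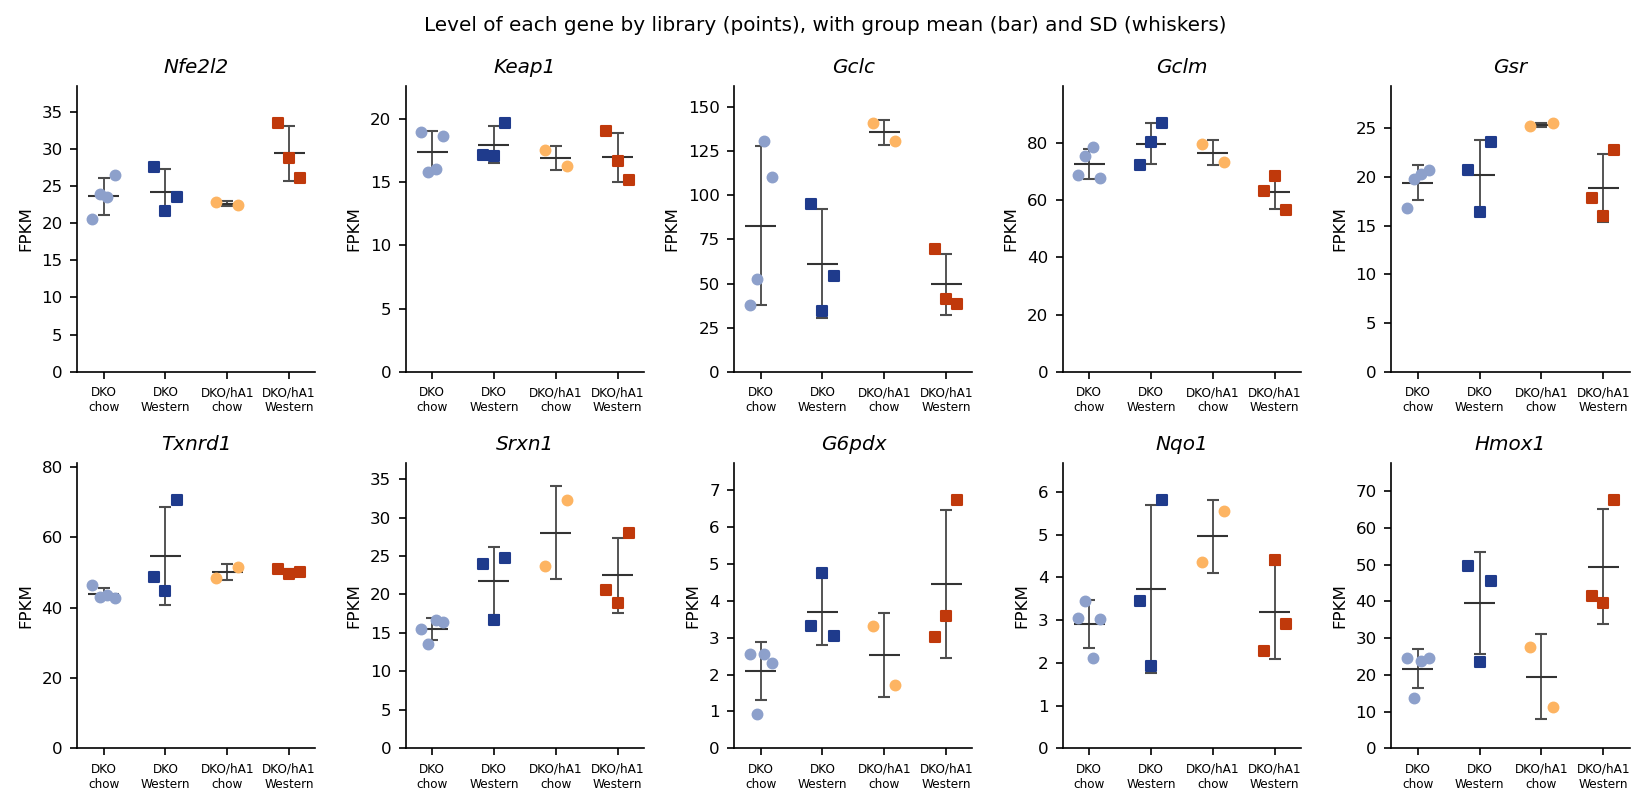
FPKM of each of the 10 genes (vertical axes) in every library, by genotype and diet group, with points for libraries, a line for the group mean and whiskers for the SD. Keap1 stays between 15.2 and 19.7 FPKM in all libraries, whereas Gclc runs from 34.4 to 141 and Hmox1 from 11.3 to 67.7.

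No member passed the test in any of the 6 comparisons, which used limma on log2(FPKM + 1) with Benjamini-Hochberg adjustment over all 11548 genes. For diet in DKO, 0 of 10 were called, against 0.113% of all genes tested. For diet in DKO/hA1 the count was 0 of 10, against 1.31%. For diet averaged over genotypes it was 0 of 10, against 4%. For genotype on chow it was 0 of 10, against 0.0779%, and for genotype on Western diet it was 0 of 10, against 0%. For the diet by genotype interaction it was 0 of 10, against 0.0173%. At an unadjusted limma p below 0.05 the members numbered 1, 4, 3, 1, 2 and 1 in this order of comparisons, against 11.8%, 13.5%, 19.5%, 7.45%, 5.84% and 4.89% of all genes tested. The median log2 difference of the members for diet averaged over genotypes was 0.01, beside -0.01 for all genes, with 5 members positive and 5 negative. With an untrended, non-robust variance in limma, 1 member, Hmox1, was called for diet averaged over genotypes (Benjamini-Hochberg adjusted p = 0.0499).

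**Figure D2:**
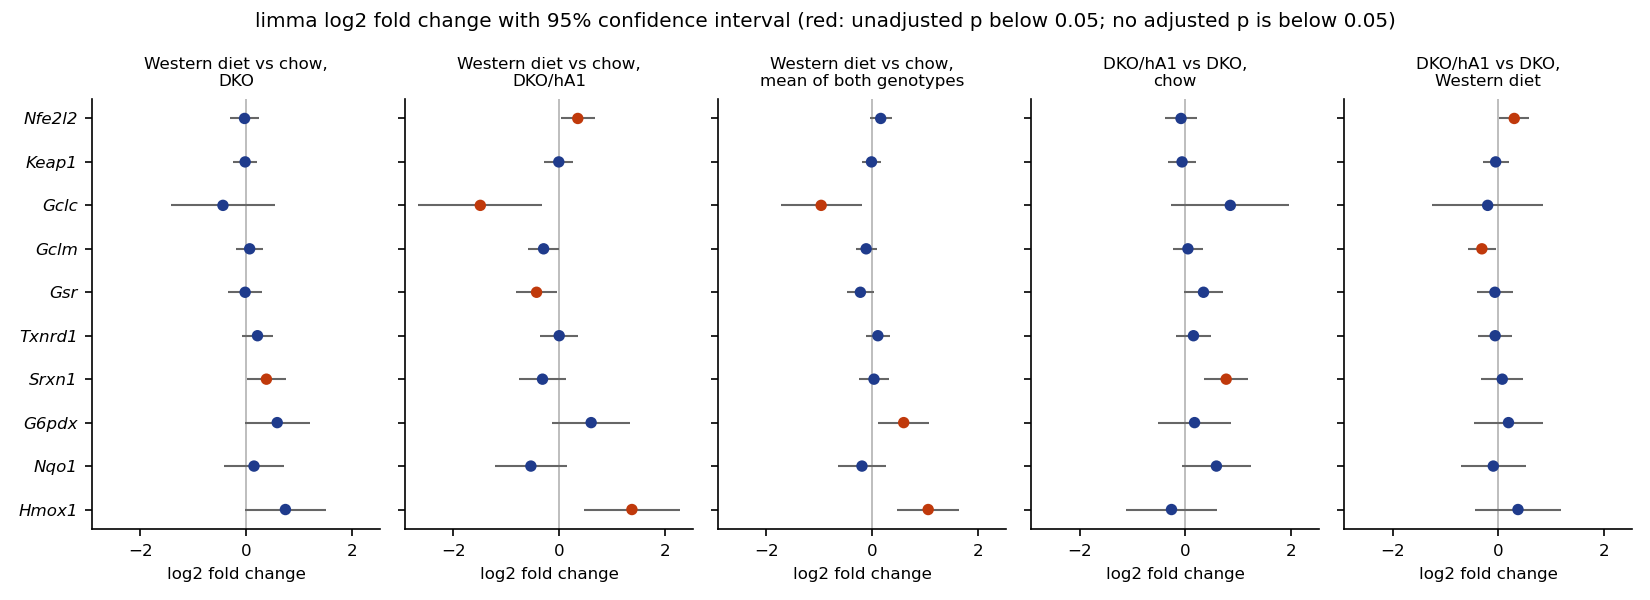
Log2 difference of each gene, on the log2(FPKM + 1) scale, for diet in each genotype, diet averaged over genotypes and genotype on each diet, with points for the limma estimate (red where the unadjusted p is below 0.05) and bars for the 95% confidence interval. Hmox1 has the highest diet estimate averaged over genotypes, 1.06, and Gclc the lowest, -0.97, and no point passed the adjusted threshold.

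Neither the regulator nor its sensor passed the test. Nfe2l2 (chromosome 2, 75675513 to 75704663 in GRCm38) was at 20.5, 23.9, 23.5 and 26.5 FPKM in DKO on chow and at 27.5, 21.6 and 23.5 in DKO on Western diet. It was at 22.8 and 22.4 FPKM in DKO/hA1 on chow and at 33.4, 28.7 and 26.1 in DKO/hA1 on Western diet. All 3 DKO/hA1 Western diet libraries stood above both DKO/hA1 chow libraries, while the DKO diet groups overlapped. Diet gave a log2 difference of 0.35 ± 0.15 (SE) in DKO/hA1 (limma adjusted p = 0.31) and -0.03 ± 0.12 in DKO (adjusted p = 0.95), and the interaction of 0.38 ± 0.19 was not called by limma (adjusted p = 0.962). Keap1 (chromosome 9, 21229730 to 21239332) had group means of 17.4 ± 1.65 FPKM (SD, n = 4) in DKO on chow and 17.96 ± 1.48 (n = 3) in DKO on Western diet. In DKO/hA1 its means were 16.9 ± 0.919 (n = 2) on chow and 17.0 ± 1.95 (n = 3) on Western diet. The 4 Keap1 means spanned 0.07 on the log2 scale, and its diet difference averaged over genotypes was -0.01, with a 95% confidence interval from -0.19 to 0.16.

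Glutathione is made by glutamate-cysteine ligase, whose catalytic subunit is encoded by Gclc and whose modifier subunit is encoded by Gclm. Gclc varied widely between libraries, and Gclm did not. Gclc (chromosome 9, 77754535 to 77794489) was at 37.6, 52.5, 131 and 110.3 FPKM in DKO on chow and at 95.03, 34.4 and 54.5 in DKO on Western diet. In DKO/hA1 it was at 141 and 131 FPKM on chow and at 69.4, 41.1 and 38.2 on Western diet. DKO on chow held a low pair and a high pair of libraries, and its high pair stood with both DKO/hA1 chow libraries, whereas every DKO/hA1 Western diet library was below all of those 4. For Gclc the log2 difference with diet was -1.49 ± 0.53 in DKO/hA1 (limma adjusted p = 0.226), -0.44 ± 0.44 in DKO (adjusted p = 0.747) and -0.97 ± 0.35 averaged over genotypes (adjusted p = 0.153). Spread within groups was wide for Gclc, at percentile 96.6 of all genes tested.

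Gclm (chromosome 3, 122245487 to 122267215) was at 68.8, 75.2, 78.5 and 67.6 FPKM in DKO on chow and at 72.2, 80.2 and 86.8 in DKO on Western diet. The DKO/hA1 libraries were at 79.7 and 73.4 FPKM on chow and at 63.1, 68.3 and 56.5 on Western diet. The DKO/hA1 Western diet libraries were below every chow library of that genotype and below every DKO Western diet library. Its log2 difference for genotype on Western diet was -0.31 ± 0.12 (limma adjusted p = 0.843) and for diet in DKO/hA1 -0.30 ± 0.14 (adjusted p = 0.381). Spread within groups was at percentile 12.4 of all genes tested. The ratio of Gclc to Gclm therefore followed Gclc, from 0.429 in DKO Western diet replicate 2 to 1.78 in DKO/hA1 chow replicate 2.

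A clock index, the mean log2 level of Arntl-arm genes minus that of Dbp-arm genes, moved with Gclc within DKO on chow. It was -2.99 and -2.86 in the chow libraries with Gclc at 37.6 and 52.5 FPKM, and 1.01 and 0.59 in those with Gclc at 131 and 110.3. In DKO/hA1 on chow the index was 0.24 and 0.65, and in the 6 Western diet libraries it ran from -2.82 to -0.77. On Western diet it did not follow Gclc. In DKO the indices were -1.31, -1.74 and -0.77, with Gclc at 95.03, 34.4 and 54.5 FPKM. In DKO/hA1 they were -2.32, -2.82 and -0.82, with Gclc at 69.4, 41.1 and 38.2 FPKM. With the index as a covariate, an alternative chosen after seeing the data, the limma diet difference of Gclc averaged over genotypes was -0.56 (adjusted p = 0.36). The indices of the diets did not overlap in DKO/hA1, so diet and index cannot be told apart in that genotype. The number in the sample descriptions also moved with Gclc. Code 57 was shared by DKO chow replicate 3 and both DKO/hA1 chow libraries, which were the 3 highest in Gclc. Code 41 was shared by replicate 1 of each Western diet group, the highest Gclc library in its group. Pericentral hepatocyte markers (7 genes) moved the opposite way on chow, with mean log2 levels of 7.11 and 7.14 in the DKO pair low in Gclc, 6.38 and 6.55 in the high pair, and 6.14 and 6.19 in DKO/hA1. On Western diet they ran from 6.07 to 7.18, and the lowest value was in DKO/hA1 replicate 3, where Gclc was also low at 38.2 FPKM. The labels do not say what the code stands for, and the part of pericentral markers or code in the Gclc values was not tested.

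**Figure D3:**
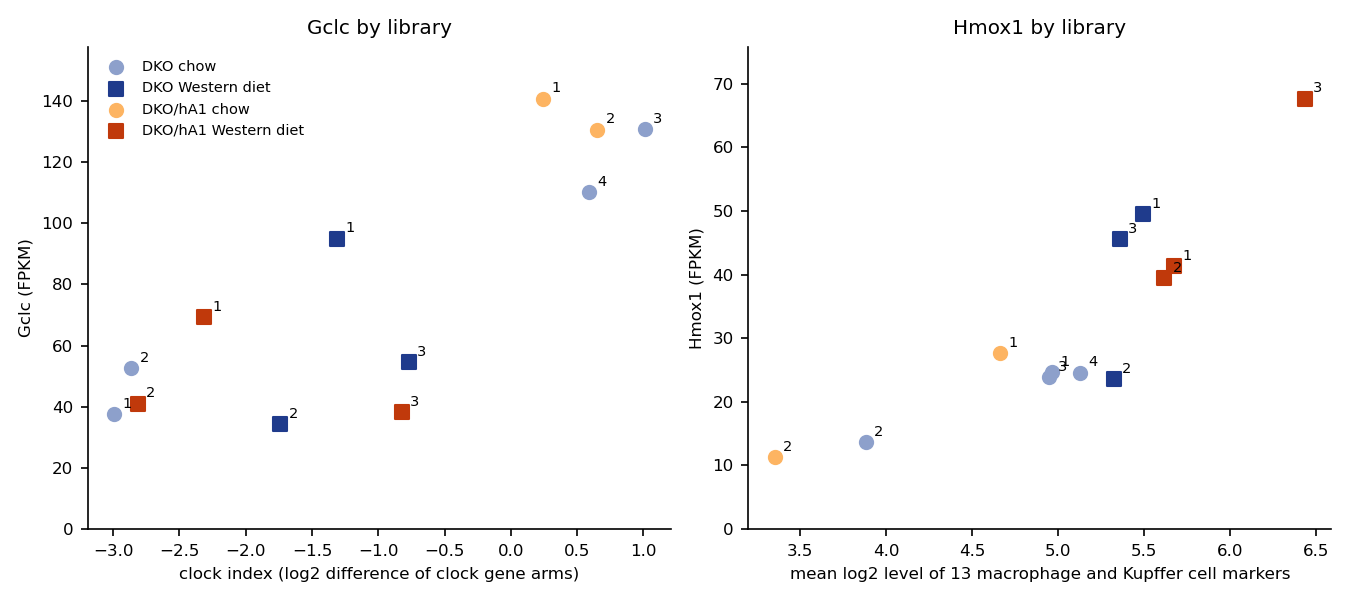
FPKM of Gclc against the clock index and of Hmox1 against the mean log2 level of macrophage and Kupffer markers, 1 point per library, with groups by colour and replicate numbers beside the points. The DKO chow libraries at an index of -2.99 and -2.86 are low in Gclc, and the macrophage mean runs from 3.35 to 5.13 on chow and from 5.32 to 6.44 on Western diet.

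Gsr encodes glutathione reductase, which returns oxidised glutathione to its reduced form. Gsr (chromosome 8, 33653238 to 33698162) was at 16.8, 19.8, 20.3 and 20.8 FPKM in DKO on chow and at 20.8, 16.4 and 23.6 in DKO on Western diet. Levels in DKO/hA1 were 25.2 and 25.5 FPKM on chow and 17.9, 16.0 and 22.8 on Western diet. Both DKO/hA1 chow libraries were above all other libraries. For Gsr the log2 difference with diet in DKO/hA1 was -0.43 ± 0.18 (limma adjusted p = 0.304), and for genotype on chow it was 0.35 ± 0.17 (adjusted p = 0.687).

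In the thioredoxin arm, Srxn1 had the lowest unadjusted p of the 10 members for genotype on chow. It encodes sulfiredoxin, which repairs overoxidised peroxiredoxins, and its promoter, printed above, held 2 matches before the start. Srxn1 (chromosome 2, 152105524 to 152111376) was at 15.5, 13.5, 16.7 and 16.4 FPKM in DKO on chow and at 23.9, 16.7 and 24.7 in DKO on Western diet. In DKO/hA1 it was at 23.7 and 32.3 FPKM on chow and at 20.6, 18.8 and 27.9 on Western diet. On chow, both DKO/hA1 libraries were above all 4 DKO libraries, and on Western diet the genotypes overlapped. The log2 difference for genotype on chow was 0.77 ± 0.19, with a 95% confidence interval from 0.35 to 1.196 (limma unadjusted p = 0.00183, adjusted p = 0.321), and 0.56 without DKO/hA1 chow replicate 2. Diet gave a log2 difference of 0.38 ± 0.17 in DKO (limma adjusted p = 0.413) and -0.32 ± 0.20 in DKO/hA1 (adjusted p = 0.553). The interaction, -0.70 ± 0.26, was not called (limma unadjusted p = 0.0222, adjusted p = 0.962).

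Txnrd1 encodes cytosolic thioredoxin reductase. Txnrd1 (chromosome 10, 82833951 to 82897724) was at 46.3, 43.2, 43.6 and 42.8 FPKM in DKO on chow and at 48.6, 44.8 and 70.7 in DKO on Western diet. With human APOA1 it was at 48.4 and 51.7 FPKM on chow and at 51.0, 49.5 and 50.3 on Western diet. The values were tight except for DKO Western diet replicate 3, at 70.7 FPKM. Genotype on chow gave a log2 difference of 0.16 ± 0.16 (limma adjusted p = 0.882), although both DKO/hA1 chow libraries were above all 4 DKO chow libraries.

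G6pdx encodes glucose-6-phosphate dehydrogenase, which makes NADPH for glutathione reductase and thioredoxin reductase. G6pdx (chromosome X, 74409483 to 74428880) was at 2.56, 0.932, 2.54 and 2.31 FPKM in DKO on chow and at 3.32, 4.75 and 3.04 in DKO on Western diet. With human APOA1 it was at 3.32 and 1.71 FPKM on chow and at 3.01, 3.59 and 6.73 on Western diet. All 3 DKO Western diet libraries were above all 4 DKO chow libraries, and in DKO/hA1 the diets overlapped. The log2 difference for diet averaged over genotypes was 0.60 ± 0.22 (limma unadjusted p = 0.0194, adjusted p = 0.159). The gene overlaps Ikbkg on the opposite strand, listed at 8.38 to 18.3 FPKM, and counting by strand is not stated, so reads from the overlap cannot be told apart.

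Nqo1 encodes a quinone reductase that is widely used as a readout of NRF2 activity. Nqo1 (chromosome 8, 107388225 to 107403205) was at 3.05, 3.44, 2.12 and 3.03 FPKM in DKO on chow and at 3.46, 1.92 and 5.81 in DKO on Western diet. In DKO/hA1 it was at 4.36 and 5.56 FPKM on chow and at 2.27, 4.42 and 2.90 on Western diet. Both DKO/hA1 chow libraries were above all 4 DKO chow libraries, and in each genotype the diets overlapped. The log2 difference for genotype on chow was 0.59 ± 0.30 (limma adjusted p = 0.715), and for diet averaged over genotypes it was -0.19 ± 0.20 (adjusted p = 0.658).

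Hmox1 encodes heme oxygenase-1, which breaks heme down to biliverdin, iron and carbon monoxide and is abundant in macrophages that clear red cells. Hmox1 (chromosome 8, 75093618 to 75100593) was at 24.6, 13.6, 23.9 and 24.6 FPKM in DKO on chow and at 49.5, 23.6 and 45.6 in DKO on Western diet. In DKO/hA1 it was at 27.7 and 11.3 FPKM on chow and at 41.4, 39.5 and 67.7 on Western diet. All 3 DKO/hA1 Western diet libraries were above both DKO/hA1 chow libraries, and in DKO 1 Western diet library fell among the chow values. The log2 difference for diet averaged over genotypes was 1.06 ± 0.27, with a 95% confidence interval from 0.47 to 1.65 (limma unadjusted p = 0.00236, adjusted p = 0.0555). It was 1.38 ± 0.41 in DKO/hA1 (limma adjusted p = 0.14) and 0.74 ± 0.34 in DKO (adjusted p = 0.433), and the interaction of 0.63 ± 0.54 was not called (adjusted p = 0.962). Leaving out DKO Western diet replicate 2 or DKO/hA1 chow replicate 1 brought the averaged Hmox1 difference under the threshold (limma adjusted p = 0.0417 and 0.028), and leaving out DKO/hA1 chow replicate 2 reduced it to 0.76 (adjusted p = 0.256). With a replicate block it was 1.01 (limma adjusted p = 0.0218).

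Macrophage and Kupffer markers moved with Hmox1 and G6pdx at their extremes, but not in every library. Of the 14 markers listed, 13 were in the table and tested, none of them at 0 throughout. For diet averaged over genotypes, 7 of the 13 were called higher, beside 324 of all 11548 genes tested. Their median log2 difference over the 13 was 1.42. Their summed level was 291 to 723 FPKM in DKO on chow, 970 to 1269 in DKO on Western diet, 212 to 575 in DKO/hA1 on chow and 1442 to 2172 in DKO/hA1 on Western diet. The lowest macrophage sums, in DKO/hA1 chow replicate 2 and DKO chow replicate 2, belonged to the libraries lowest in Hmox1 and in G6pdx. The highest, in DKO/hA1 Western diet replicate 3, belonged to the library highest in both. DKO Western diet replicate 2 had a sum of 988 FPKM with Hmox1 at 23.6 and G6pdx at 4.75. Replicate 3 of that group had a sum of 970 FPKM with Hmox1 at 45.6 and G6pdx at 3.04. With the macrophage mean as a covariate, chosen after seeing the data, the averaged diet difference was 0.01 for Hmox1 (limma adjusted p = 0.998) and -0.27 for G6pdx (adjusted p = 0.73). The macrophage means of the diets did not overlap, so diet and macrophage content cannot be told apart in this fit. Neutrophil markers had mean log2 levels of 6.46 in replicate 2 of DKO on Western diet and 6.26 in replicate 3 of DKO/hA1 on Western diet, the highest of the 12 libraries. Without both of those libraries the averaged Hmox1 difference was 1.10 (limma adjusted p = 0.0556).

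Separation of libraries was counted on the scaled log2 values. On Western diet against chow in DKO, 1 of 10 members, G6pdx, did not overlap and was higher, and 0 were lower, beside 7.31% higher and 5.36% lower among all genes tested. The number separated was 4 without DKO Western diet replicate 2. In DKO/hA1, 2 members (Nfe2l2 and Hmox1) were higher, beside 15.2% of genes, and 3 (Gclc, Gclm and Gsr) were lower, beside 15.3%. Without DKO/hA1 chow replicate 1, the number of members separated in DKO/hA1 was 9 instead of 5. Only replicate 2 then remained in that chow group, and smaller groups separate more easily. The share of all genes separated was not computed with libraries left out, so such counts show nothing particular to the members. Between genotypes on chow, 5 members (Nqo1, Gclc, Srxn1, Txnrd1 and Gsr) were higher in DKO/hA1 and 0 were lower, beside 10.7% higher and 11.1% lower among all genes. Gclc did not separate without scaling, at 130.7 FPKM in the lower DKO/hA1 library and 130.9 in the highest DKO library. Both DKO/hA1 chow libraries carried code 57, as did 1 DKO chow library, so code and genotype can be compared within code 57 only through that library. It was at 16.7 FPKM for Srxn1 against 23.7 and 32.3, and at 2.12 for Nqo1 against 4.36 and 5.56. For Gsr it was at 20.3 against 25.2 and 25.5, and for Txnrd1 at 43.6 against 48.4 and 51.7. Gclc in that library, at 130.9, lay between the DKO/hA1 values of 130.7 and 140.8. Between genotypes on Western diet, 1 member, Gclm, was lower in DKO/hA1 and 0 were higher, beside 3.63% lower and 5.38% higher among all genes. That count was 2 after leaving out any 1 of DKO Western diet replicate 1, DKO Western diet replicate 3 and replicate 3 of the DKO/hA1 Western diet group. No member separated all 6 Western diet from all 6 chow libraries, as 2.94% of genes did.

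Around these members, 71 other genes of the pathway were listed by role and 68 were tested. The lists were chosen with earlier results of these data known, so their shares beside all genes are a description and no test. Averaged over genotypes, 5 of the 68 were called lower on Western diet and 1 higher, and the conjugation and export genes held 4 of the 5. Over all genes tested, 4% were called, 324 of them higher and 138 lower. Gsta1, a glutathione S-transferase, fell by 1.79 ± 0.33 on the log2 scale (limma adjusted p = 0.0163), from 7.06 ± 2.92 to 2.55 ± 1.85 FPKM (SD, n = 4 and 3) in DKO and from 24.9 ± 5.37 to 4.77 ± 1.87 (n = 2 and 3) in DKO/hA1. Its relative Gsta2 fell by 2.17 ± 0.41 (limma adjusted p = 0.0197), and Gstm3 fell by 1.70 ± 0.38 (adjusted p = 0.0357). Ugdh, which makes the UDP-glucuronic acid used in glucuronidation, fell by 0.84 ± 0.17 (limma adjusted p = 0.0206). Prdx4, a peroxiredoxin of the endoplasmic reticulum, fell by 0.39 ± 0.09 (limma adjusted p = 0.0378). Blvra, the biliverdin reductase that acts after heme oxygenase, rose by 0.45 ± 0.09 (limma adjusted p = 0.0241). Glutathione S-transferases form a family of similar copies, so the division of reads among them is uncertain.

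Of the 18 conjugation and export genes, 17 had a negative diet difference averaged over genotypes, with a median of -0.86 beside -0.01 for all genes. As this list was chosen with earlier results known, its shift is described here and not tested. Gsta4, at 64.3 ± 15.0 FPKM (SD, n = 4) and 19.4 ± 12.4 (n = 3) in DKO on chow and Western diet, was at -1.82 ± 0.45 and was not called (limma adjusted p = 0.0533). The median of the list ran from -1.02 to -0.67 over the other alternatives, except that it was -0.46 without both libraries highest in neutrophil markers (DKO Western diet replicate 2 with replicate 3 of DKO/hA1 on that diet). The count of 6 genes called was less steady, at 3 without DKO Western diet replicate 2, 1 without DKO/hA1 chow replicate 1 and 0 without DKO/hA1 chow replicate 2. Of 25 alternatives, the call held in 20 for Gsta1, 18 for Gsta2, 18 for Ugdh, 15 for Blvra, 9 for Prdx4 and 8 for Gstm3, with the direction kept in all 25. The count was 1 with the replicate block and 0 with the code as a random block, the clock index or the macrophage mean as a covariate. Diet in DKO called 0 of the 68 genes by limma, with 7 at an unadjusted p below 0.05, beside 11.8% of all genes tested. Gstm3 was called in DKO without DKO Western diet replicate 3 (limma adjusted p = 0.00875), and Gsta2 and Gsta4 without both libraries highest in neutrophil markers (adjusted p = 0.036 and 0.0273). Diet in DKO/hA1 called 2 of the 68 genes by limma, beside 1.31% of all genes tested. There 20 of the 68 had an unadjusted limma p below 0.05, beside 13.5% of all genes. The 2 called were Ugdh, which fell by 1.37 ± 0.26 (limma adjusted p = 0.032), and Blvra, which rose by 0.68 ± 0.14 (adjusted p = 0.0483). Without DKO/hA1 chow replicate 2 neither of these calls held (limma adjusted p = 0.433 for each), and the range over alternatives was 0.0113 to 0.494 for Ugdh and 0.0442 to 0.497 for Blvra.

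**Figure D4:**
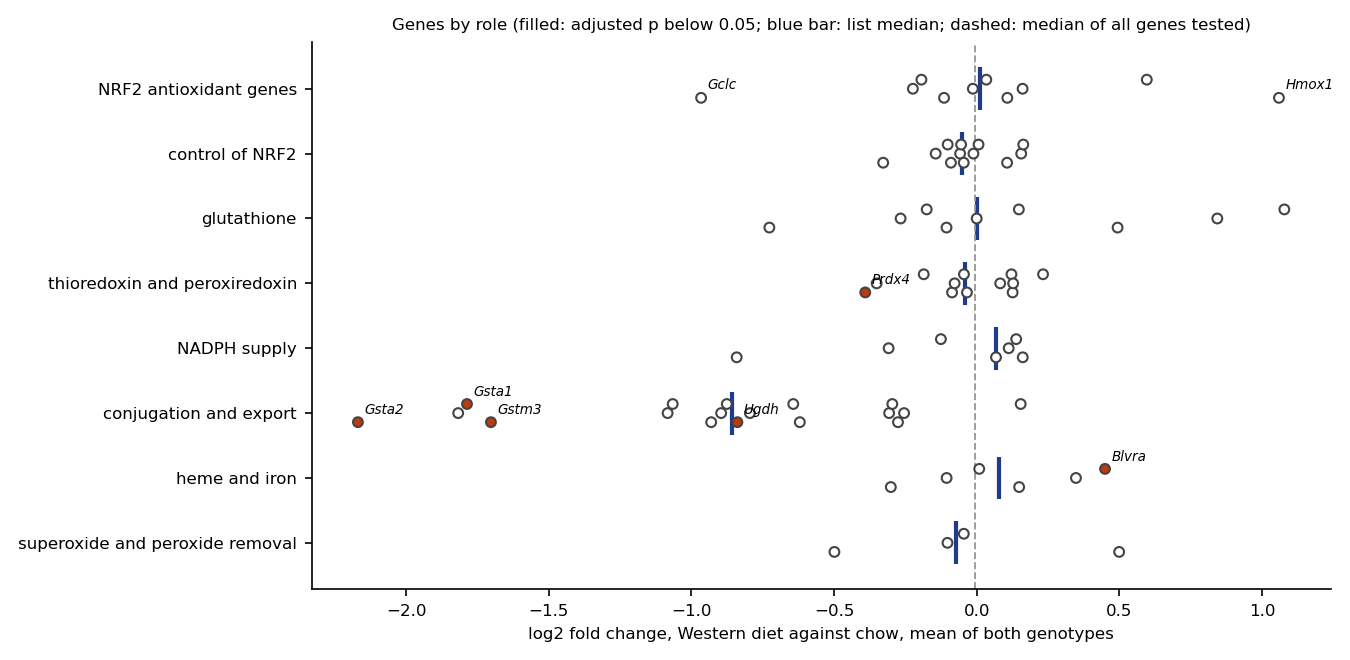
Log2 difference for diet averaged over genotypes of each tested gene in the NRF2 antioxidant genes and in 7 lists of other pathway genes, with filled points for adjusted p below 0.05, a blue bar at the median of each list and a dashed line at the median of all genes tested. The conjugation and export genes lie mostly below 0, with a median of -0.86, while the NRF2 antioxidant genes have a median of 0.01. All lists were chosen with earlier results of these data known.

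The other lists had medians from -0.07 to 0.08 for diet averaged over genotypes, although single genes in them differed more. Among 12 tested genes that act on NRF2 itself, 0 were called for diet averaged over genotypes by limma, and 1 had an unadjusted p below 0.05. For this comparison 19.5% of all genes tested had an unadjusted limma p below 0.05. Sqstm1, which encodes p62, an adaptor that binds KEAP1, was at 273 ± 19.7 FPKM (SD, n = 2) in DKO/hA1 on chow against 184 ± 30.8 (n = 4) in DKO on chow, a log2 difference of 0.55 ± 0.20 (limma adjusted p = 0.515). Nfe2l1, a relative of NRF2, differed by 0.16 ± 0.09 for diet averaged over genotypes (limma adjusted p = 0.342). In the glutathione list limma called 0 of 9 tested genes, with 3 at an unadjusted p below 0.05. They included Gpx3, a secreted glutathione peroxidase, at 1.08 ± 0.38 (limma adjusted p = 0.153) and Chac1, which degrades glutathione, at 0.84 ± 0.33 (adjusted p = 0.189). The NADPH list had 0 of 7 called by limma and 0 at an unadjusted p below 0.05, with Me1, malic enzyme, at -0.84 ± 0.44 (limma adjusted p = 0.326) and Idh1, cytosolic isocitrate dehydrogenase, at -0.31 ± 0.14 (adjusted p = 0.257). Txnip, which binds thioredoxin, was at -0.35 ± 0.26 (limma adjusted p = 0.502), and Hmox2, the constitutive heme oxygenase, at 0.35 ± 0.11 (adjusted p = 0.103). Unadjusted limma p was below 0.05 for 1 of 12 thioredoxin and peroxiredoxin genes and 3 of 6 heme and iron genes. In the conjugation and export list it was below 0.05 for 12 of 18. Among genes that remove superoxide and peroxide, limma called 0 of 4, with 1 at an unadjusted p below 0.05. It was Cat, catalase, at -0.50 ± 0.22 (limma adjusted p = 0.235), and the extracellular superoxide dismutase Sod3 was at 0.50 ± 0.24 (adjusted p = 0.289).

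On chow, libraries of 8 of the 18 conjugation and export genes were higher in DKO/hA1 than in DKO without overlap, or 44.4% of the list, beside 10.7% of all genes. Gstm3 was at 82.3 ± 5.74 FPKM (SD, n = 2) in DKO/hA1 against 35.1 ± 5.51 (n = 4) in DKO, a log2 difference of 1.19 ± 0.55 that was not called (limma adjusted p = 0.664). Ugdh was at 98.3 ± 3.03 FPKM against 57.6 ± 6.54, a difference of 0.74 ± 0.24 (limma adjusted p = 0.452). For all 68 genes the counts were 14 higher and 15 lower, and limma called 0 of the 68 for genotype on chow, with 12 at an unadjusted p below 0.05, beside 7.45% of all genes. In DKO/hA1, 14 of the 18 conjugation and export genes were lower on Western diet without overlap, or 77.8%, beside 15.3% of all genes. Both comparisons use the same 2 DKO/hA1 chow libraries, and the list was chosen with earlier results of these data known.

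Because no member was called, likeness was sought for the 3 members whose group means spanned the widest log2 range. It was measured as the root mean square difference of centred log2 levels over the 12 libraries. Gclc was most like Ddc (0.27), Col5a3 (0.28) and Mreg (0.28), against its own root mean square deviation of 0.74. Hmox1, at 0.68, was most like Treml4 (0.16), Dmpk (0.26) and Slc11a1 (0.28). G6pdx, at 0.47, was most like Slc25a4 (0.16), Ptpn6 (0.19) and Arpc1b (0.20).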

How the data were processed

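The authors deposited FPKM per gene and library in 1 table. Per the submitters' processing notes, TopHat 1.3.2, Bowtie 0.12.8, SAMtools 0.1.19 and Cuffdiff were used with build mm10; the Cuffdiff version, annotation and strand setting are not given in the sources used here. The labels say that RNA under an integrity number of 7 was not used. The values are not counts, so limma 3.58.1 (R 4.3.3) replaced the test planned for counts.

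Small RNA genes (773) were left out. So were 21 genes, among them Alb, Trf and 14 Mup genes, that a whole group listed at 0 although another group had 1 FPKM or more in each library; such zeros in liver may be failed estimates. Next, genes with at least 1 FPKM in at least 2 libraries were kept; 5179 of the 23284 were at 0 in all libraries. Library scaling used trimmed means without weights, trimming 0.3 of the log ratios and 0.05 of the levels, and gave factors of 0.936 to 1.04. The value 1 was added before log2, which understates changes of low genes. A model of the 4 groups over all 12 libraries used a trended, robust variance, and the script was tested on simulated data. Calls required a two-sided adjusted p below 0.05. Log2 differences are on that scale, whereas fold ranges between libraries are of FPKM.

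The members and lists were chosen with earlier results of these data known. The text names all members, each called gene of the other lists and the 2 with the largest diet difference per list, and the 3 genes most like 3 members. Figures used Python 3.11.15 and matplotlib 3.10.9. Sequences are from RefSeq, build GRCm38.p6. Alternatives changed the added value, scaling, filter, variance, blocks and libraries. The labels do not say what the replicate numbers share, so they were not taken as pairs in the main fit.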

Additional observations from a re-analysis of the deposited data

Results flagged for a closer look

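DKO chow replicate 2 stood apart from the other 3 libraries of its group in Hmox1 and G6pdx. Hmox1 was at 13.6 FPKM there, with the nearest other library at 23.9, a gap of 0.933 of the range of the group. G6pdx was at 0.932 FPKM, with the nearest other library at 2.31, a gap of 0.846 of the range. Each gap exceeded Dixon's 95% critical value for 4 samples. The members' values were examined in 10 groups of 4, and chance marks about 1 group in 20. The same library had the lowest relative depth, 0.515, and the lowest macrophage and endothelial marker means in its group, 3.88 and 2.51 on the log2 scale. The part of these in the low values was not tested. Without this library the diet difference in DKO was 0.39 for G6pdx (limma adjusted p = 0.648), beside 0.59 with it.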

How the results depend on the processing

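Over 25 alternatives no result reversed a call. The number of members called for diet averaged over genotypes was 1 with an untrended variance, 1 with a replicate block, and 0 to 1 with 1 library left out. Called genes among the other pathway genes, 6 as reported, were 1 with the replicate block, 0 with the code as a random block, and 0 to 9 with 1 library left out. They were 0 with the clock index, 0 with the macrophage mean, and 0 without both libraries lowest in endothelial markers, alternatives chosen after seeing the data. Members separated by diet in DKO numbered 0 when at least 5 FPKM was required, which removes G6pdx, 4 without both libraries highest in neutrophil markers, and 1 to 4 with 1 library left out. Members separated by diet in DKO/hA1 numbered 5 to 9 with 1 library left out. Between genotypes on Western diet they numbered 5 without the libraries highest in neutrophil markers and 1 to 2 with 1 library left out, and on chow 8 without those lowest in endothelial markers. Smaller groups separate more easily, and the share of all genes separated was not computed for them. These counts therefore show nothing particular to the members. The cause was not tested. Over all genes, calls for diet averaged over genotypes went from 462 to 295 with the replicate block, 39 with the code, 10 with the macrophage mean, 57 without the endothelial-low libraries and 32 to 535 with 1 library left out. Calls ran from 3 to 189 for diet in DKO/hA1 (151 as reported), 7 to 71 in DKO (13), 1 to 41 for genotype on chow (9) and 1 to 8 for the interaction (2). With the code as a random block, libraries sharing a code had a consensus correlation of 0.565, whereas the main fit took all libraries as independent. Scaling to equal FPKM totals moved the all-gene median from -0.01 to -0.137 and the share of averaged calls that were higher from 70.1% to 43%. Same-numbered libraries had deviations correlated from -0.28 to 0.442 (median -0.015, 15 pairs across genes), beside -0.519 to 0.548 for others. These correlations cannot settle whether the numbers mark pairs, since deviations in a group of 2 mirror each other, and the labels do not say. Library depth, 0.515 to 1.31 relative to 1 library, limits low genes such as G6pdx and Nqo1 most.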
